A study of Homo sapiens with 6 samples.

Results

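Adhesion and the actin cytoskeleton are joined by adaptor proteins. Followed here were 6 genes grouped under this heading, not all of which encode adaptors: LASP1, SKAP2, KRIT1, ARHGAP33, CD99 and TSPAN6. They were chosen by name, with no measured value in the rule, though with earlier results of these data known. They are 6 of the 99 genes analysed from the table of gene FPKM values (read fragments scaled to gene length and to the mapped fragments of the library). The RNA came from LNCaP-AI, a human prostate cancer cell line labelled as castration-resistant and related to the androgen-responsive line LNCaP. Its cells carried a short hairpin construct named for the circular RNA hsa_circ_0092339 (3 libraries, sh_0092339) or a negative control vector (3 libraries, NC). All 3 sh_0092339 libraries have the same hairpin name, so what the hairpin does to other RNAs and what follows from the circular RNA cannot be told apart. The circular RNA itself was not analysed here, so the knockdown was not checked, and no prostate luminal marker looked for was among the rows, so the cell type could not be checked either. Nothing in the labels states that replicates were separate cultures; p-values here therefore cover the spread among libraries, which could be technical. In bulk RNA, fewer cells of a kind and less RNA per cell cannot be told apart. By the scaling of the deposited values the sh_0092339 libraries held 53127020 to 80559726 mapped fragments and the NC libraries 58091756 to 68990788. The 99 genes analysed held 253649 to 378901 counts per library, so they are only a small part of what was sequenced.

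Cells hold on to each other and to their surroundings through membrane receptors whose inner ends are tied to actin filaments. LIM and SH3 domain adaptors such as LASP1 and Src kinase substrates such as SKAP2 link signals at the membrane to the actin network. KRIT1 is a scaffold at cell junctions that binds the small GTPase Rap1 and is best known from endothelial cells, where loss of its function underlies cerebral cavernous malformations. GTPase-activating proteins, to which ARHGAP33 belongs, switch off small GTPases, some of which drive actin assembly. CD99 is a surface glycoprotein of cell adhesion and of leukocyte passage through vessel walls, and TSPAN6 belongs to the tetraspanins, which organise other membrane proteins into patches.

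The title of the series names hsa-miR-940 as the microRNA that hsa_circ_0092339 is proposed to bind. Its mature sequence is shown because its seed can be compared with the transcripts of the 6 genes. The RefSeq entry on GRCh38.p14 places it on the plus strand, at chr16:2271806-2271826, and the capitals mark the seed, bases 2 to 8 from the 5′ end.
hsa-miR-940: aAGGCAGGgcccccgcucccc

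The DNA letters that pair with this seed are CCTGCCT. They were searched on the transcript strand of the 3′ untranslated region of 1 transcript per gene, the GENCODE 29 protein-coding transcript with the longest coding sequence. LASP1 held 2 matches in 2992 bases, CD99 held 1 match in 505 bases, and the regions of SKAP2, KRIT1, TSPAN6 and ARHGAP33 held 0. The matches are shown with 10 bases on each side, 5′ to 3′ on the plus strand of GRCh38, with the 7 matched bases in capitals. They lie at chr17:38919580-38919606, chr17:38920697-38920723 and chrX:2740871-2740897, in the order listed.
LASP1, first match: gggacccttgCCTGCCTcctaggctgg
LASP1, second match: gtggggaggcCCTGCCTgacccatccc
CD99: ctgaaggacaCCTGCCTgagagcagag

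Such a match was present in 2 of the 6 genes (33.3%), in 16 of 69 genes tested in the same table that have such a region (23.2%) and in 24.5% of 18800 protein-coding genes. Per kilobase of region there were 0.312 matches in the 6 genes, 0.241 in the tested genes and 0.266 in all protein-coding genes. These are matches of letters, and no binding was measured. The mean in the sh_0092339 libraries was the lower one for both genes with a match (LASP1, CD99) and for ARHGAP33 and SKAP2 among those without, and the higher one for KRIT1 and TSPAN6, which also lack a match; none of these differences passed the test.

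None of the 6 genes passed the test between sh_0092339 and NC libraries. By limma on log2(FPKM + 1), with p adjusted by the Benjamini-Hochberg method over all 70 genes with a mean of at least 1 FPKM, 0 of the 6 had an adjusted p under 0.05, against 31.4% of all tested genes (20% called higher and 11.4% called lower). By edgeR's quasi-likelihood test on the counts of the same table, 0 of the 6 were called, against 25% of the 84 genes tested (15.5% called higher and 9.52% called lower). At an unadjusted p under 0.05 the count was 1 of 6 by either tool, ARHGAP33 each time, against 47.1% of tested genes by limma and 40.5% by edgeR. DESeq2 called 1 of the 6, ARHGAP33, against 32.1% of the 84 genes, and limma-voom 0 of the 6, against 25%. The median log2 fold change of the 6 genes was -0.06, with 2 higher and 4 lower, and that of all 70 tested genes was 0.03. All 6 genes had a mean over 1 FPKM, so the filter on low values removed none of them. Adjusted p-values and shares of called genes hold for the analysed genes only, and could differ over all genes sequenced.

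**Figure D1:**
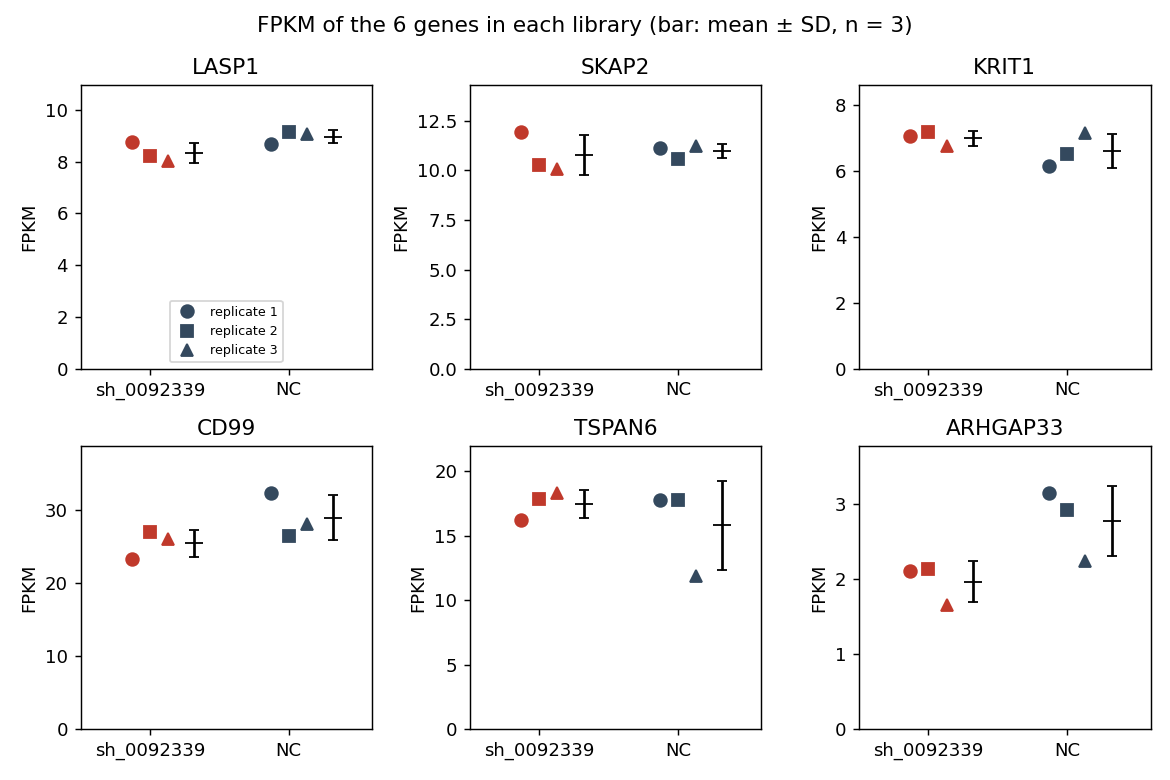
FPKM (vertical axes, from 0) of the 6 genes in the 3 sh_0092339 libraries (red) and the 3 NC libraries (dark), with the mean ± SD beside each group; symbols stand for the replicate number. The groups overlap in 5 panels, while the 3 sh_0092339 values of ARHGAP33 lie below all 3 NC values.

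LASP1, which binds actin filaments and the focal adhesion protein zyxin, had 8.77, 8.23 and 8.02 FPKM in the sh_0092339 libraries and 8.67, 9.13 and 9.08 FPKM in the NC libraries. The first sh_0092339 library lay just above the lowest NC library, and the others lay below all NC libraries. The means were 8.34 ± 0.388 and 8.96 ± 0.254 FPKM (SD, n = 3 each), a ratio of 0.931. The limma log2 fold change was -0.09 ± 0.0524 (SE), with a 95% confidence interval of -0.22 to 0.03 (adjusted p = 0.203). The interval covers ratios of 0.859 to 1.02, on the scale of FPKM + 1.

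The spread of LASP1 was small, with coefficients of variation of 4.65% in the sh_0092339 and 2.83% in the NC libraries, against medians of 6.91% and 7.23% over the tested genes. Its counts were 3292, 4682 and 4172 in the sh_0092339 libraries and 3558, 3781 and 4424 in the NC libraries. These raw counts follow the depth of each library, and scaled to mapped fragments they were 62.0, 58.1 and 56.7 CPM in the sh_0092339 libraries and 61.2, 64.5 and 64.1 CPM in the NC libraries. The edgeR log2 fold change of -0.11 ± 0.0564 (adjusted p = 0.186) was close to the limma value.

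SKAP2, a substrate of Src family kinases that is best known from blood cells, where it links integrins to actin, had 11.9, 10.3 and 10.1 FPKM in the sh_0092339 libraries. In the NC libraries it had 11.2, 10.6 and 11.2 FPKM. The 3 NC values lay inside the range of the sh_0092339 values. The means of 10.8 ± 1.01 FPKM with the hairpin and 10.98 ± 0.357 FPKM with the control vector (SD, n = 3 each) gave a ratio of 0.980. The log2 fold change was -0.03 ± 0.0719 by limma (95% confidence interval -0.20 to 0.14, adjusted p = 0.748) and -0.03 ± 0.0820 by edgeR (adjusted p = 0.80). Its direction did not hold: the ratio of means was 1.01 without the third sh_0092339 library and 1.003 without the second.

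Of the 4 leukocyte markers looked for, CD38, FGR and MPO had a row, each with 0 counts in the 3 sh_0092339 libraries. In the NC libraries CD38 had 4 to 12 counts, FGR 0 to 12 and MPO 0, beside 3323 to 4151 counts of SKAP2. These markers were at or near 0 in the libraries in which SKAP2 was measured. The remaining marker, PTPRC, had no row, and the source of the SKAP2 reads was not tested. FGR encodes a Src family kinase, and with 16 counts over all 6 libraries it was too low to be tested.

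KRIT1 had 7.06, 7.18 and 6.75 FPKM in the sh_0092339 libraries and 6.15, 6.52 and 7.16 FPKM in the NC libraries. The third NC library lay among the sh_0092339 libraries and the other NC libraries below them. The means were 6.997 ± 0.221 and 6.61 ± 0.512 FPKM (SD, n = 3 each), a ratio of 1.06, and the ratio ran from 1.02 to 1.10 as each library was left out in turn. The log2 fold change was 0.07 ± 0.0629 by limma (95% confidence interval -0.08 to 0.22, adjusted p = 0.378) and 0.08 ± 0.0757 by edgeR (adjusted p = 0.434). It kept a positive sign under all 11 alternatives of each test.

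ARHGAP33, a sorting nexin-like GTPase-activating protein described mainly in neurons, stood at the lowest level of the 6 genes. Its FPKM values were 2.11, 2.14 and 1.65 in the sh_0092339 libraries and 3.14, 2.91 and 2.24 in the NC libraries. All sh_0092339 values lay below all NC values, the nearest being 2.14 in the second sh_0092339 library and 2.24 in the third NC library. Among all tested genes the groups did not overlap for 52.9%, and 21.4% had every sh_0092339 value below every NC value, so such a pattern was common among these genes.

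The means of ARHGAP33 were 1.96 ± 0.273 FPKM with the hairpin and 2.76 ± 0.467 FPKM with the control vector (SD, n = 3 each), a ratio of 0.711. The limma log2 fold change was -0.34 ± 0.117 (95% confidence interval -0.62 to -0.06) with an unadjusted p of 0.0237 and an adjusted p of 0.0645. The pseudocount shrinks the change of a gene at this level, and by edgeR on counts the log2 fold change was -0.49 ± 0.170 (95% confidence interval -0.90 to -0.08), with an unadjusted p of 0.0261 and an adjusted p of 0.0732. An exact two-sided permutation test of the FPKM values gave p = 0.1, the smallest that 3 against 3 libraries allow.

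The value of ARHGAP33 in the third NC library was 0.741 times the mean of the other NC libraries, and only 4 of the 70 tested genes, ARHGAP33 included, were that low there. Without that library it was called, with a limma adjusted p of 0.0246 (over all alternatives 0.0246 to 0.327) and an edgeR adjusted p of 0.0476 (over all alternatives on counts 0.0261, by DESeq2, to 0.231), and the ratio of means was 0.649. DESeq2 called it on all 6 libraries, with a log2 fold change of -0.50 and an adjusted p of 0.0261. The first NC library was the highest, at 1.22 times the mean of the other NC libraries, and 4 of the 70 tested genes, ARHGAP33 included, were that high there. Without that library the limma adjusted p was 0.172, the edgeR adjusted p was 0.231 and the ratio of means was 0.763. The third sh_0092339 library was the lowest, at 0.777 times the mean of the other sh_0092339 libraries, and without it the ratio was 0.768. The counts behind these values were 593, 910 and 643 in the sh_0092339 libraries and 963, 900 and 818 in the NC libraries, or 11.2, 11.3 and 8.73 CPM against 16.6, 15.4 and 11.9 CPM.

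**Figure D2:**
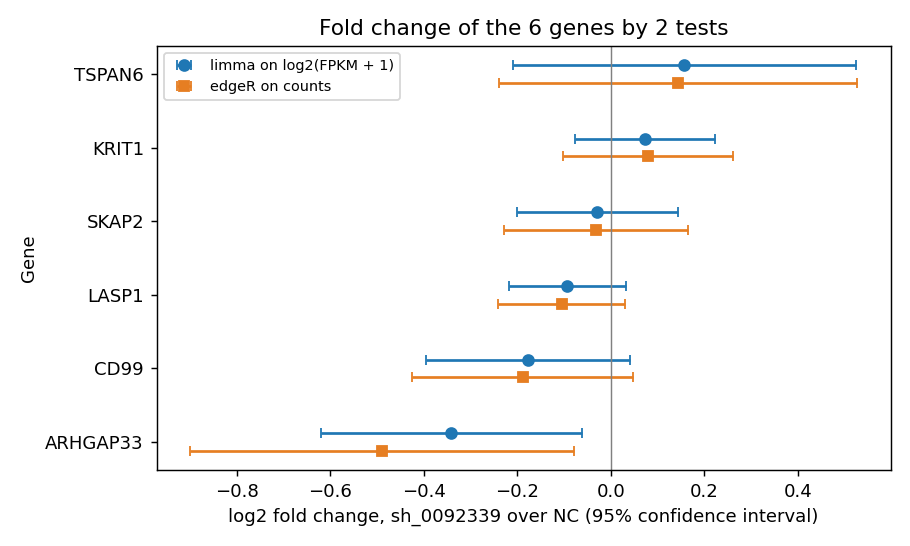
Log2 fold change (horizontal axis, sh_0092339 over NC) of each gene with its 95% confidence interval, by limma on log2(FPKM + 1) (circles) and by edgeR on counts (squares). The intervals of 5 genes include 0 by both tests, and that of ARHGAP33 lies below 0 before adjustment for the number of genes.

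A single transcript of the 6 genes was among the analysed rows of the transcript counts: ENST00000593034 of ARHGAP33, annotated as a retained-intron transcript on the plus strand of chromosome 19 (35784832 to 35786598, GRCh38). It had 4, 26 and 5 counts in the sh_0092339 libraries and 11, 16 and 16 counts in the NC libraries. That was 0.675%, 2.86% and 0.778% of the gene's count in the sh_0092339 libraries and 1.14%, 1.78% and 1.96% in the NC libraries. The groups overlapped (exact two-sided permutation p = 0.8 for the percentage). No difference in the share of this transcript was detected, and the low counts and 3 libraries a group limit such a test.

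CD99 had the highest level of the 6 genes, with 23.4, 26.9 and 26.0 FPKM in the sh_0092339 libraries and 32.3, 26.4 and 28.1 FPKM in the NC libraries. The second NC library lay among the sh_0092339 values and the other NC libraries above them. The means were 25.4 ± 1.86 and 28.9 ± 3.05 FPKM (SD, n = 3 each), a ratio of 0.879. The log2 fold change was -0.18 ± 0.0911 by limma (95% confidence interval -0.40 to 0.04, adjusted p = 0.176) and -0.19 ± 0.0985 by edgeR (95% confidence interval -0.43 to 0.05, adjusted p = 0.186). The ratio ran from 0.842 without the second NC library to 0.933 without the first, which was the highest of all libraries.

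CD99 lies in the part of the X chromosome that pairs with the Y, and GENCODE 29 lists the gene on both. Reads of the X and Y copies cannot be told apart, and a pseudogene copy, CD99P1, also exists, so its value is uncertain. Its counts were 6032, 10546 and 9312 in the sh_0092339 libraries and 9127, 7516 and 9430 in the NC libraries. Scaled to mapped fragments they were 113.5, 130.9 and 126.5 CPM in the sh_0092339 libraries and 157.1, 128.2 and 136.7 CPM in the NC libraries.

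TSPAN6 had 16.2, 17.9 and 18.3 FPKM in the sh_0092339 libraries and 17.8, 17.7 and 11.8 FPKM in the NC libraries. A single library stood apart, the third NC library, which lay at 0.667 times the mean of the other NC libraries; 3 of the 70 tested genes, TSPAN6 included, were that low there. The means of 17.4 ± 1.10 and 15.8 ± 3.41 FPKM (SD, n = 3 each) gave a ratio of 1.11, and without the third NC library the ratio was 0.983. The limma log2 fold change was 0.16 ± 0.153 (95% confidence interval -0.21 to 0.52, adjusted p = 0.429), and without that library it was -0.025.

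The coefficient of variation of TSPAN6 was 6.33% in the sh_0092339 libraries and 21.6% in the NC libraries, the fifth highest of the 70 tested genes in the NC group. Its counts were 3906, 6528 and 6110 in the sh_0092339 libraries and 4685, 4715 and 3709 in the NC libraries, although the third NC library was the deepest of its group. The edgeR log2 fold change was 0.14 ± 0.159 (adjusted p = 0.515). With these errors the data cover ratios of TSPAN6 from 0.864 to 1.44 on the scale of FPKM + 1.

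**Figure D3:**
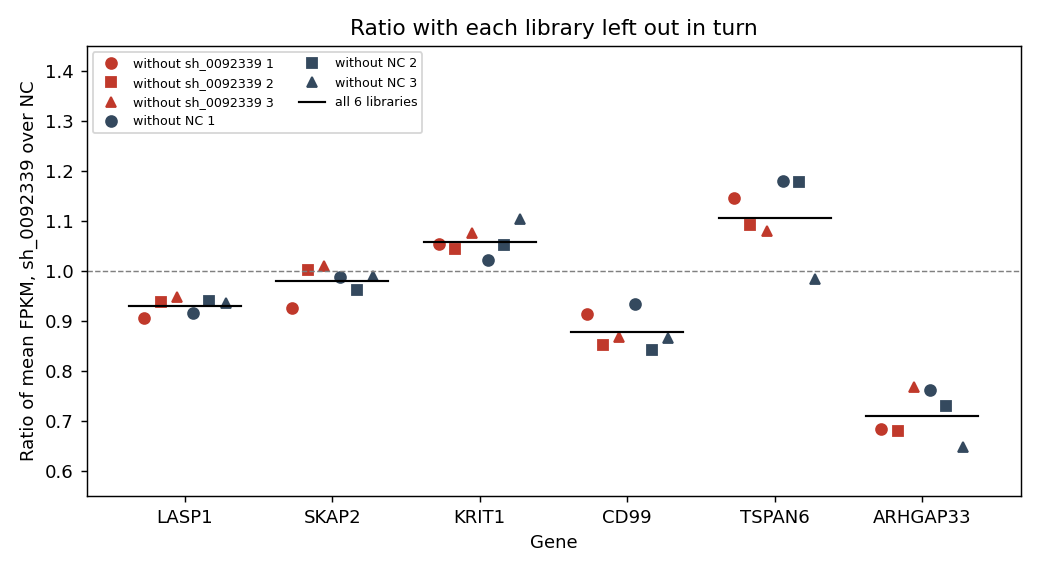
Ratio of mean FPKM, sh_0092339 over NC (vertical axis), for each gene with all 6 libraries (line) and with each library left out in turn (symbols). TSPAN6 moves from 1.11 to 0.983 without the third NC library, SKAP2 crosses 1, and ARHGAP33 stays between 0.649 and 0.768.

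The order of the levels was CD99, TSPAN6, SKAP2, LASP1, KRIT1 and ARHGAP33, with means over the 6 libraries of 27.2, 16.6, 10.9, 8.65, 6.80 and 2.36 FPKM. This order was the same in all 6 libraries. Only the ranges of the neighbours TSPAN6 and SKAP2, 11.8 to 18.3 and 10.1 to 11.9 FPKM over the 6 libraries, met. Among the 99 genes analysed the 6 ranked 11, 18, 31, 34, 38 and 63 by mean FPKM. These levels depend on the length used for each gene. The ratio of count to FPKM gave a length of 7065 bases for LASP1 and 4861 for CD99, near the 7061 and 4912 bases that all annotated exons of these genes cover together in GENCODE 29. The transcript with the longest coding sequence has 4109 bases for LASP1 and 1291 for CD99. Scaled to the length of that transcript, the mean FPKM of CD99 would be 102.4 and that of LASP1 14.9, just above the 14.6 of SKAP2, so the order of LASP1 and SKAP2 turns.

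**Figure D4:**
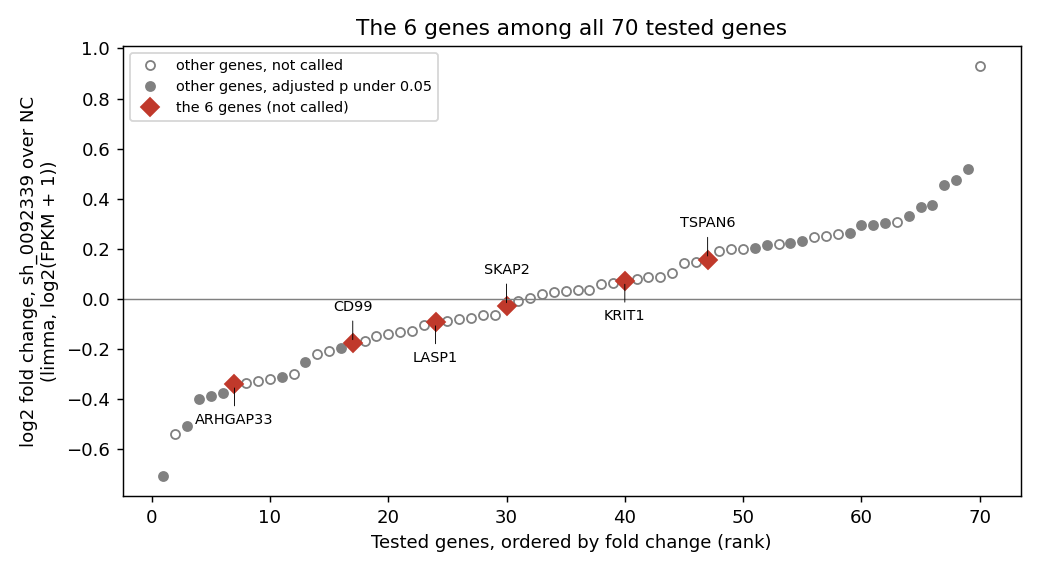
Log2 fold change by limma (vertical axis, sh_0092339 over NC) of all 70 tested genes in order of their change (horizontal axis), with the 6 genes as red diamonds, other called genes filled and other genes open. The 6 genes spread over the order from ARHGAP33 at -0.34 to TSPAN6 at 0.16.

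For each gene the tested gene with the most similar course over the 6 libraries was looked up by Pearson's r of log2(FPKM + 1), as a description over 6 points that share their libraries and scaling. KRIT1 was most like ENPP4 (r = 0.96) and ARHGAP33 most like WDR54 (r = 0.96). WDR54 had 8.81 ± 0.671 FPKM in the sh_0092339 and 10.3 ± 1.04 FPKM in the NC libraries (SD, n = 3 each), and was not called either (limma adjusted p = 0.102). LASP1 was most like PLXND1 (r = 0.93), a receptor of semaphorins, TSPAN6 most like HOXA11 (r = 0.84), CD99 most like ICA1 (r = 0.81) and SKAP2 most like SARM1 (r = 0.79). ICA1 passed the test where CD99 did not: it fell to 1.81 ± 0.335 FPKM in the sh_0092339 libraries, against 3.56 ± 0.246 FPKM in the NC libraries (SD, n = 3 each; limma adjusted p = 0.00681).

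Other genes of the same processes were taken from a list of adhesion and actin genes and a list of small GTPases and their regulators. Of the 94 adhesion and actin genes other than the 6, 7 had a row and 3 were tested by limma, of which 1 fell and 0 rose, against 11.4% of all tested genes called lower and 20% called higher. With 3 genes tested, the count says nothing particular about the list. The gene that fell was SEMA3F, a secreted semaphorin, with 1.88 ± 0.160 FPKM in the sh_0092339 and 3.09 ± 0.272 FPKM in the NC libraries (SD, n = 3 each; limma adjusted p = 0.00726). PLXND1 had 3.89 ± 0.352 and 5.13 ± 0.751 FPKM and did not pass (limma adjusted p = 0.0563). Its groups did not overlap, as was the case for 52.9% of all tested genes. KLHL13, a substrate adaptor of a ubiquitin ligase, had 2.61 ± 0.0302 and 2.42 ± 0.116 FPKM and did not pass (limma adjusted p = 0.305).

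By edgeR 5 genes of that list were tested, of which 1, SEMA3F, fell (edgeR adjusted p = 0.0108) and 0 rose, against 9.52% of all tested genes called lower and 15.5% called higher. At an unadjusted p under 0.05 the count was 4 of 5 by edgeR, against 40.5% of all tested genes, and 2 of 3 by limma, against 47.1%. The 4 were SEMA3F, PLXND1, THSD7A and HSPB6, each lower in the sh_0092339 libraries, while KLHL13 was higher. So few genes say nothing particular about the list. THSD7A, a membrane protein with thrombospondin repeats, had 62 to 105 counts in the sh_0092339 and 128 to 166 in the NC libraries (log2 fold change -0.91 ± 0.269, edgeR adjusted p = 0.0509). HSPB6, a small heat shock protein that binds actin regulators in muscle, had 15 to 50 and 43 to 80 counts (log2 fold change -1.38 ± 0.50, edgeR adjusted p = 0.0783). MYH16, a myosin heavy chain that is a pseudogene in humans, had 65 counts in all and was not tested. Of these 5, DESeq2 called 3, against 32.1% of the 84 tested genes, and limma-voom 2, against 25%.

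Of the 37 GTPase genes 3 had a row, and 0 of the 3 passed by limma or edgeR, with 1 at an unadjusted p under 0.05 by each, against 47.1% of all genes tested by limma and 40.5% by edgeR. DESeq2 called 1 of the 3, against 32.1% of all genes. PLXND1, whose inner part acts on small GTPases, and ARF5 were among them. ARF5, a GTPase of vesicle transport, had 49.7 ± 5.02 FPKM in the sh_0092339 and 56.4 ± 9.32 FPKM in the NC libraries (limma adjusted p = 0.342).

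In GRCh38 coordinates, as the table gives them, LASP1 lies on chromosome 17 (38869859 to 38921769), SKAP2 and KRIT1 on chromosome 7 (26667068 to 26865113 and 92198969 to 92246166), ARHGAP33 on chromosome 19 (35774532 to 35788822), and CD99 and TSPAN6 on the X chromosome (2691187 to 2741300 and 100627108 to 100637104). All 6 are annotated as protein-coding. LASP1 overlaps 2 antisense genes and the microRNA gene MIR6779 on its own strand, and ARHGAP33 overlaps 1 gene on the other strand, LINC01529. KRIT1 overlaps 4 annotated genes on its own strand. The sources used here do not give whether counting used strand, so reads in these overlaps cannot be assigned with certainty. SKAP2, CD99 and TSPAN6 overlap no other annotated gene over the span given in the table.

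The start sites differed in base composition. RefSeq promoter windows of 300 bases on GRCh38.p14 were found for 5 of the 6 genes. The LASP1 and CD99 windows had 76.3% and 77% G and C with 35 and 33 CpG pairs, and the KRIT1 windows had 76% and 67.3% with 34 and 25, against medians of 58.7% and 14 over 34961 windows. The SKAP2 window had 47.7% G and C with 6 CpG pairs, and the TSPAN6 windows had 42.3% and 47.3% with 5 and 12. LASP1, CD99 and KRIT1 thus had more CpG pairs than the median, and SKAP2 and TSPAN6 fewer, though the second TSPAN6 window was close to it. Each of these groups held genes with higher and lower means in the sh_0092339 libraries, and none of these differences passed the test.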

How the data were processed

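Per the labels' protocols RNA was extracted with Trizol and libraries followed a standard Illumina procedure. Per the submitters' processing notes cutadapt, HISAT2 and StringTie were used, with the build hg18, although the deposited coordinates are those of GRCh38. The authors deposited FPKM values and whole-number counts per gene side by side, with 0 counts listed at 0.0001 FPKM, and a further table of counts per transcript. Mapped fragments per library, used as library sizes, were recovered from the counts, FPKM and the length (a measure of another kind) that the authors deposited for isoforms, over those with at least 1000 counts. Counts and FPKM are thus the same reads on different scales (they differed by at most 2.41% in 76 genes with at least 100 counts), and their tests are not independent.

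FPKM were tested with limma 3.58.1 (trend, pseudocount 1, mean of at least 1 FPKM) and counts with edgeR 4.0.16 (quasi-likelihood, TMM on the tested rows, filterByExpr), p adjusted over all tested rows; edgeR's SE comes from its F statistic. The alternatives were DESeq2 1.42.0 and limma-voom, a fit with the replicate block, each library left out in turn, and changed scaling, filter or pseudocount. A chi-square statistic of 24.0 to 60.3 per degree of freedom between replicates of a group showed no replicate pair within sampling noise. The named genes are the 6 members, the list genes with a row (1 is not reported here), and the most similar gene to each member. Members and lists were chosen with earlier results of these data known. Of the other markers looked for, prostate luminal, basal and neuroendocrine lists had 0 genes with a row, and the stromal marker TNMD had 0 counts. The endothelial marker TFPI had 0.690 to 0.790 FPKM in sh_0092339 and 1.05 to 1.10 FPKM in NC libraries. By edgeR TFPI was called lower (log2 fold change -0.54 ± 0.0928, adjusted p = 0.0108), as were 9.52% of all tested genes.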

Additional observations from a re-analysis of the deposited data

How the results depend on the processing

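Of 132 values of the 6 genes under the alternatives, 121 kept their direction and their side of the threshold, 5 (all ARHGAP33) became called and 6 changed sign. SKAP2 changed to 0.053 (median centring) and 0.0059 (quantile normalization) on the log2 scale by limma. Leaving out each library in turn gave SKAP2 -0.099 to 0.011 by limma and -0.11 to 0.031 by edgeR, positive without the third sh_0092339 library, and TSPAN6 -0.025 to 0.25 by limma and -0.013 to 0.25 by edgeR, negative without the third NC library. The count of the 6 genes called was 1 in place of 0 with the replicate block, by limma (adjusted p = 0.0325) and by edgeR (0.0376), with DESeq2 on counts, and by both tools without the third NC library; leaving out each library in turn gave 0 to 1. Same-numbered libraries did not deviate together over the tested genes (correlations of -0.125 to -0.116), and 0 of 6 libraries correlated best with their own number. These values show no pairing by number, but with 3 libraries a group they cannot exclude one. ARHGAP33 itself was lowest in the third library of each group (1.65 FPKM in sh_0092339 and 2.24 FPKM in NC). Over all tested genes 14 rose and 8 fell by limma, 23 and 7 with median centring, and 8 and 8 with quantile normalization; the causes were not tested. Leaving out each library gave 13 to 25 calls by limma in place of 22 (13 without the first sh_0092339 library and 14 without the third sh_0092339 library) and 9 to 22 by edgeR in place of 21 (9 without the second sh_0092339 library, 13 without the second NC library). With 3 libraries a group, an adjusted p over the threshold does not show that a gene is unchanged, and the confidence intervals give the range of changes the data allow.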
